A study of Mus musculus with 4 samples.

Results

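In 93 bins of 5 kb on the mouse autosomes, uniquely placed reads of total histone H3 fell on no more than 1 position in 1 of 2 differentiated cell lines, while the other line and embryonic stem (ES) cells held more. Such bins are called empty here, also where they hold 1 position. Of the 93 bins, 58 were empty in C2C12 myotubes and 35 in 38B9 pro-B cells, out of 492493 autosomal bins. The libraries came from 4 groups with 1 library each, all precipitated with the same antibody against total H3. The ES line was V6.5 (C57BL/6-129), kept on irradiated feeder fibroblasts and moved to gelatin without them before use. The first of its libraries was untreated and the other was made after 24 h in 10 uM SB431542, which blocks TGF-beta type I receptors. Myotubes were made from C2C12 myoblasts by 48 h in low horse serum supplemented with insulin, transferrin and selenium. 38B9, a line of B-cell precursors, was kept in RPMI medium with serum. The labels give a strain background for the ES cells, and the strain of C2C12 and 38B9 is not given in the sources used here. The labels' cell types were not checked against marker genes, since H3 reads give no expression.

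Bins were chosen on the read counts themselves, so the emptiness of the members is not a result, and no test was made of it. A bin had to hold 30 or more distinct read positions in the ES libraries together and 0 or 1 position in exactly 1 of the differentiated lines. In the other differentiated line it had to hold at least 0.5 times the ES level. The level of a library is its share of its own autosomal positions, divided by the mean of the same share in both ES libraries, so that 1 is the ES level. The chromosome 4 stretch from 88000001 to 90000000 and the chromosome 12 stretch from 113000001 to 117500000 were left out. Positions are on the mm8 build.

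Histone H3 is a core subunit of the nucleosome, around which nearly all nuclear DNA is wrapped. An antibody against total H3 therefore recovers DNA along most of the genome, and reads are expected in any bin in which a 36-base read can be placed at 1 site. No input library was used here, so the number of DNA copies and the H3 recovered per copy cannot be told apart. All intervals are 95% intervals for counting error only. With 1 library per group they hold no variation between libraries, and no difference has a replicate check. PCR copies cannot be told from separate molecules here.

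The libraries held between 12432118 and 13469179 distinct autosomal positions at 1 place. Bins that met the ES minimum outside the left-out stretches numbered 417158. Among the 400831 bins in which pro-B cells also had the required level, 0.0145% were empty in myotubes. Among the 409051 in which myotubes had it, 0.00856% were empty in pro-B cells. Besides the members, 118 bins held 0 or 1 position in both lines. With the roles exchanged, the same limits were met in 1 bin in which untreated ES cells alone were empty, and in 0 bins for SB431542-treated ES cells alone. That bin, on chromosome 15 from 46510001 to 46515000, held 1 position in untreated ES, 20 in treated ES, 22 in myotubes and 10 in pro-B cells. It was named after its values were seen. No bin was empty in both ES libraries among 409804 bins with 30 or more positions in the differentiated lines.

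Most members were wholly empty. Of the 58 myotube bins, 47 held 0 positions and 11 held 1, while the same bins held 1377 positions in untreated ES, 1505 in treated ES and 1354 in pro-B cells. Of the 35 pro-B bins, 22 held 0 and 13 held 1, against 887, 843 and 828 positions in untreated ES, treated ES and myotubes. Each lone position was a single read, without repeats, and 7 of the 11 in myotubes and 7 of the 13 in pro-B cells lay within 1 kb of an end of their bin.

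Just outside the limits, 9 bins were left out for holding 2 positions in myotubes and 17 for holding 3. For pro-B cells these were 18 and 38 bins, so that the edge of the rule was more crowded there. A further 6 myotube and 9 pro-B bins fell short at 28 or 29 ES positions, beside 5 and 5 members at 30 or 31. Only 2 and 3 bins missed at a level of 0.4 to 0.5 in the other line, beside 5 and 1 members at 0.5 to 0.6. Allowing up to 3 positions gave 84 bins for myotubes and 91 for pro-B cells, so the order of the lines turned under that limit. With bins of 2.5 kb and an ES minimum of 15 it turned as well, at 624 and 719 bins.

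Touching bins were joined into 41 regions for myotubes and 26 for pro-B cells. Of the myotube regions, 32 were single bins, 6 were pairs, 1 had 4 bins and 2 had 5. Of the pro-B regions, 19 were single bins, 6 were pairs and 1 had 4 bins. Chromosome 1 held 23 of the 58 myotube bins, or 39.7%, with 8.17% of the bins tested. Chromosomes 3 and 15 followed with 6 bins each, or 10.3% of the members, with 6.54% and 4.4% of the bins tested. Chromosomes 9, 14, 16 and 18 held 0, with 5.25%, 4.84%, 4.17% and 3.81% of the bins tested. Pro-B bins were most numerous on chromosome 11 with 7 of 35, or 20% of the members with 5.32% of the bins tested. Chromosome 19 followed with 4, or 11.4% of the members with 2.52% of the bins tested. Both lines had regions on 11 of the 19 autosomes, and chromosome 18 held none of either. No region of one line lay within 100 kb of a region of the other. Within 1000 kb of a region of the other line lay 6 myotube regions and 4 pro-B regions.

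**Figure D1:**
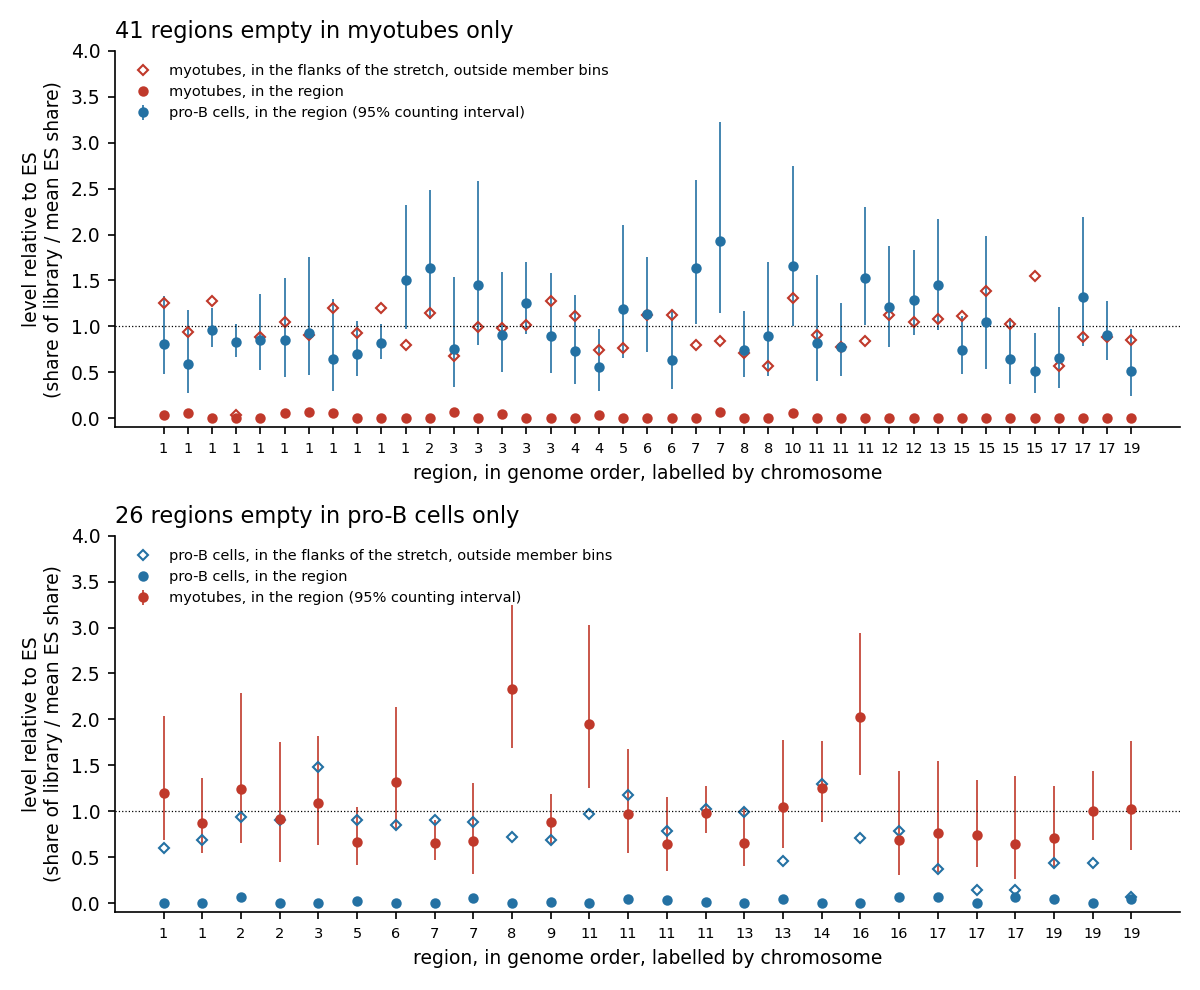
Level of each library relative to ES cells for the 41 regions empty in myotubes (top) and the 26 empty in pro-B cells (bottom), in genome order and labelled by chromosome. Filled points are the empty line and the other line in the region (bars are 95% counting intervals), and open diamonds are the empty line in the 20 kb on each side of the read-free stretch, outside member bins. The empty line lies at or near 0 by the choice of the regions, the other line lies between 0.511 and 2.33, and the diamonds have medians of 0.987 (top) and 0.787 (bottom), with the lowest ones at the clusters on chromosomes 1, 17 and 19.

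The largest group of myotube members was a cluster of 3 regions with 11 bins on chromosome 1. The region from 8120001 to 8145000 held 107 positions in untreated ES, 154 in treated ES, 0 in myotubes and 123 in pro-B cells. The region from 8155001 to 8180000 held 134, 163, 0 and 120 positions in the same order, and the single bin from 8195001 to 8200000 held 27, 38, 0 and 27. By the choice of the bins myotubes are low here, and what differs between the regions is their length.

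Of the 5 bins between these regions, 4 fell short of the ES minimum. The fifth, from 8150001 to 8155000, held 21, 13, 1 and 8 positions, so that pro-B cells were also below the required level there. From the first to the last read-free base, 8113095 to 8216676, the cluster spanned 104 kb. Over that span myotubes held 3 positions, against 333 in untreated ES, 438 in treated ES and 311 in pro-B cells. As a description of bins mostly chosen for these counts, the myotube level was 0.00834 and the pro-B level 0.826. Myotube reads were present on both sides, with 15 positions from 8110001 to 8115000 and 13 from 8215001 to 8220000.

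Pro-B cells were themselves low beside this cluster. In the bin from 8100001 to 8105000 they held 6 positions, against 30, 15 and 42 in untreated ES, treated ES and myotubes. That bin lay outside the cluster, where myotubes had the highest count of the 4 libraries.

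Next in length was a 20 kb region on chromosome 1 from 124550001 to 124570000. It held 125 positions in untreated ES, 143 in treated ES, 1 in myotubes and 107 in pro-B cells. Between the nearest myotube positions outside the region lay 33.1 kb, with that 1 position inside. A lone read split the region, so the longest read-free part was 17.6 kb. The bin next to the region on the right held 17, 23, 29 and 25 positions. Myotubes thus held the most positions in the bin that followed the region.

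The other 5 myotube regions among the 8 longest were pairs of bins. On chromosome 3 from 78605001 to 78615000 the libraries held 53 (untreated ES), 60 (treated ES), 0 (myotubes) and 69 (pro-B) positions. This pair lay within 13.1 kb free of uniquely placed myotube reads, where reads with 2 places held 11, 11, 13 and 16 positions. On chromosome 15 from 5895001 to 5905000 the libraries held 42, 52, 0 and 34, within 11.1 kb. Both stretches were little wider than the bins that found them, and myotubes were at 1.02 and 1.11 times the ES level in their flanks. With 2-place reads counted as well, the stretches fell to 6.72 and 4.87 kb.

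On chromosome 1 from 118480001 to 118490000 the positions were 44, 49, 0 and 32, and on chromosome 12 from 109580001 to 109590000 they were 48, 39, 0 and 55. These stretches reached farther than their bins, over 19.2 kb and 22.1 kb. In these spans, free of uniquely placed myotube reads by definition, the other libraries held 61 to 72 and 76 to 82 positions each. With 2-place reads counted as well, the chromosome 12 span fell to 5.74 kb and that on chromosome 1 stayed at 19.2 kb.

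The fifth pair lay on chromosome 17, from 36280001 to 36290000, with 50, 61, 0 and 49 positions. It shared a stretch free of uniquely placed myotube reads with the single bin from 36265001 to 36270000, which held 15, 27, 0 and 27. The stretch ran from 36262966 to 36293325, or 30.4 kb, and held 95, 129, 0 and 109 positions. Reads with 2 places held 62, 65, 24 and 58 positions in it, and with those counted as well it fell to 9.19 kb. The genes of the major histocompatibility complex, which present peptides to T cells, are known to lie on this chromosome, and no gene was placed on the bins because no annotation of mm8 was used here.

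Of the single-bin regions, the 3 with the most ES positions were chromosome 8 from 104130001, chromosome 1 from 8195001 (in the cluster above) and chromosome 11 from 27230001. The chromosome 8 bin held 34, 38, 0 and 26 positions and lay in 8.57 kb free of uniquely placed myotube reads. The chromosome 11 bin held 34, 29, 0 and 24 and lay in 10.3 kb. On chromosome 11 the bins on each side held 11 and 4 myotube positions, against 27 and 19 in pro-B cells.

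Pro-B regions had no cluster as large as that of chromosome 1. The longest, on chromosome 11 from 103325001 to 103345000, held 95 positions in untreated ES, 105 in treated ES, 92 in myotubes and 1 in pro-B cells. Its neighbouring bins held 27 pro-B positions on the left and 23 on the right, against 30 and 23 in myotubes. Pro-B cells were thus close to myotubes in the first bin on each side.

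The pair on chromosome 7 from 57710001 to 57720000 held 82 (untreated ES), 82 (treated ES), 50 (myotubes) and 0 (pro-B) positions. The pair on chromosome 9 from 41310001 to 41320000 held 68, 83, 62 and 1, and the pair on chromosome 14 from 13960001 to 13970000 held 42, 52, 55 and 0. These lay in spans of 12.4, 12.1 and 16.6 kb with no more than that 1 pro-B position. Myotubes, the line with reads, were below the ES level on chromosome 7, at 0.652, and at 0.880 on chromosome 9, and above it on chromosome 14.

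In 2 pro-B pairs myotubes lay above the ES level. On chromosome 8 from 86380001 to 86390000 the positions were 43, 32, 82 and 0, a myotube level of 2.33. On chromosome 16 from 36220001 to 36230000 they were 39, 24, 60 and 0, a level of 2.03. Both lay in long stretches free of uniquely placed pro-B reads, of 29.6 and 38.1 kb. Reads with 2 places held 70, 68, 112 and 39 positions in the chromosome 8 stretch, and 56, 55, 62 and 27 in the other. With those counted as well, the stretches fell to 5.65 and 9.76 kb. In the flanks, pro-B cells were at 0.724 and 0.713 times the ES level, with intervals of 0.571 to 0.912 and 0.454 to 1.09. Myotubes were above the ES level in the chromosome 8 flanks as well, at 1.67.

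The single pro-B bins with the most ES positions lay on chromosomes 5, 13 and 1. On chromosome 5 from 54590001 to 54595000 the positions were 46, 37, 26 and 1, and on chromosome 13 from 19875001 to 19880000 they were 33, 45, 24 and 0. On chromosome 1 from 11910001 to 11915000 they were 41, 30, 29 and 0. The first and second filled little more than their bin, at 5.31 and 5.58 kb between the nearest outer pro-B positions, and the third spanned 13.4 kb.

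Clusters of pro-B members lay on chromosomes 19 and 17, and the bins between the members there were also thin in pro-B reads. On chromosome 19 the 3 regions with 4 bins between 12245001 and 12280000 held 152 positions in untreated ES, 160 in treated ES, 116 in myotubes and 5 in pro-B cells over the whole 35 kb. The pro-B level there was 0.0328, again in bins partly chosen for it. The longest pair of this cluster, from 12255001 to 12265000, held 49, 47, 45 and 0. To the right, pro-B positions stayed between 0 and 2 per bin out to 12300000, where the other libraries held up to 17. To the left, the first bin, from 12240001 to 12245000, was also low in pro-B cells, at 15, 14, 15 and 3 positions. The next, from 12235001 to 12240000, held few in any library, at 1, 1, 3 and 4. Farther left, the bin from 12230001 to 12235000 held 7, 16, 11 and 15. Pro-B cells were at 0.966 times the ES level in the left flank of the first stretch.

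On chromosome 17 the 3 single bins between 35670001 and 35720000 lay in 50.0 kb with 128, 115, 76 and 11 positions. Pro-B cells were at 0.0924 and myotubes at 0.669 of the ES level over this span. The span was thus not wholly empty in pro-B cells, and it was low in myotubes as well. The bin directly before it, from 35665001 to 35670000, held 15, 15, 3 and 4 positions. Farther left, in the bin from 35650001 to 35655000, pro-B cells held 40 positions against 7, 10 and 8. To the right, pro-B cells held 1 or 2 positions per bin out to 35735000, where the other libraries held 4 to 17.

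**Figure D2:**
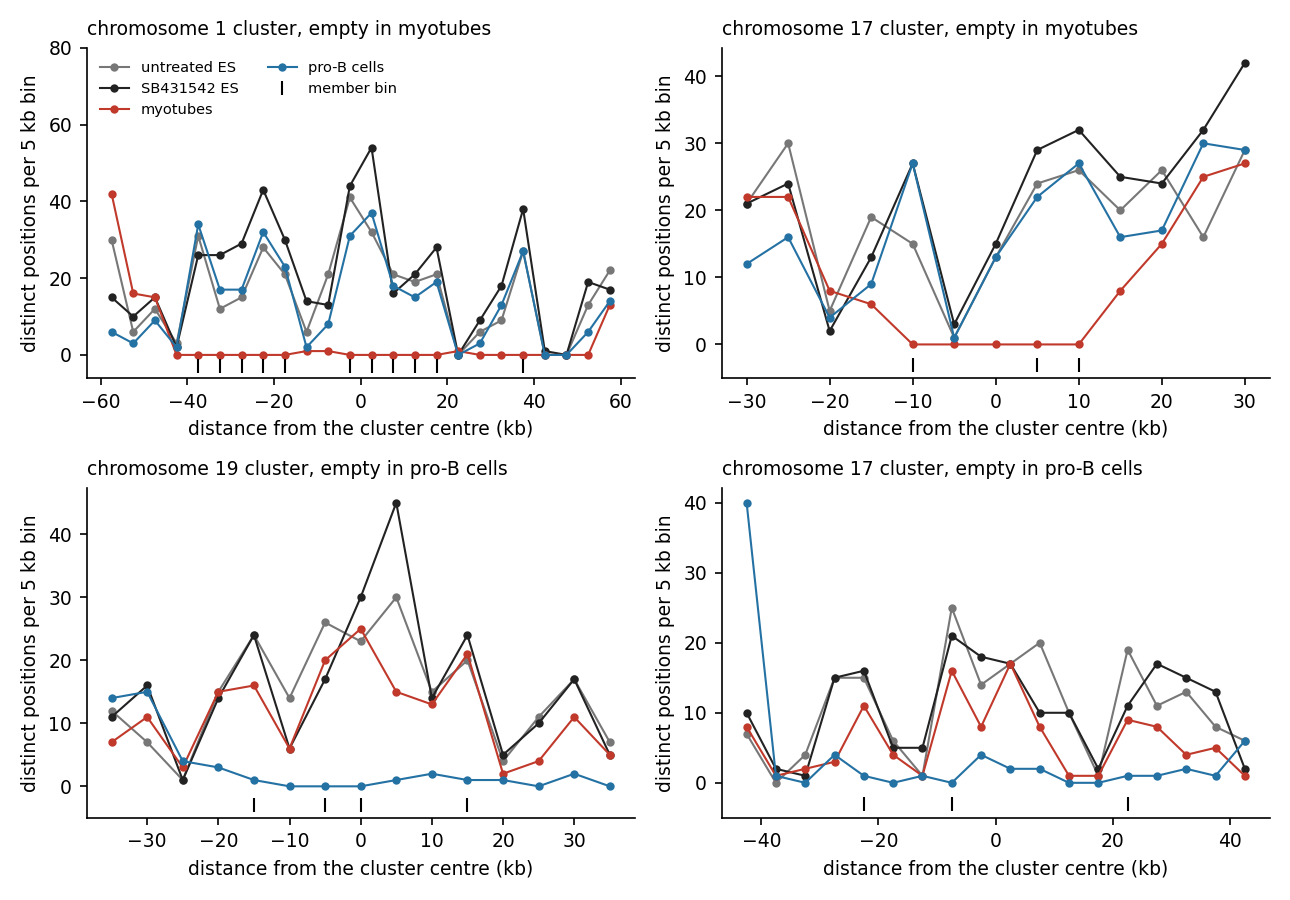
Distinct positions per 5 kb bin (vertical axis) against the distance in kb from the centre of each of 4 clusters of regions, for the 4 libraries, with member bins marked by ticks. Within the chromosome 1 cluster the myotube line stays at 0 or 1 while the other libraries reach up to 54. Within the chromosome 17 cluster empty in myotubes, the myotube line stays at 0. Through the clusters empty in pro-B cells, on chromosomes 19 and 17, the pro-B line stays at 0 to 4.

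The level of the other differentiated line was part of the rule, which set a floor of 0.5, so its values are given as a description. In regions empty in myotubes, pro-B cells were at 0.961 in sum, with a median of 0.900 and a range of 0.511 to 1.93 over regions. Of these 41 regions, 19 lay within 0.25 of the ES level, 12 below and 10 above. In regions empty in pro-B cells, myotubes were at 1.02 in sum, with a median of 0.941 and a range of 0.640 to 2.33. Of these 26 regions, 13 lay within 0.25 of the ES level, 9 below and 4 above. Single regions thus lay on both sides of the ES level in both lines, cut off below by the floor of 0.5. The counting interval of the single region covered 1 in 33 of the 41 and in 22 of the 26.

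The ES libraries could be compared with each other in these regions, since the rule used only their sum. Treated ES cells were at 1.07 times the untreated level in regions empty in myotubes (0.990 to 1.15) and at 0.927 times in those empty in pro-B cells (0.842 to 1.02). In the 20 kb flanks of the stretches, described below, these ratios were 1.04 (1.01 to 1.08) and 1.03 (0.983 to 1.07). Whether regions and flanks differ in this was not tested. Over single regions the median was 1.07 (range 0.578 to 1.79), with 21 of 41 above 1, for myotubes. For pro-B cells it was 0.816 (0.397 to 2.25), with 8 of 26 above 1, so most of these regions lay lower in treated cells although the sum's interval covered 1. The interval of single regions excluded 1 in 1 of 41 and 2 of 26. These were chromosome 1 from 8120001 at 1.40 times (1.09 to 1.81), chromosome 7 from 142010001 at 0.397 times (0.178 to 0.827, 11 against 27 positions) and chromosome 11 from 31150001 at 2.25 times (1.22 to 4.34, 37 against 16). They were named after their values were seen, and their intervals are not adjusted for the number of regions. The file headers place the treated library in a different run from the other 3, so an effect of SB431542 and one of the run cannot be told apart.

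Both the ES minimum and the low counts asked of 1 line bear on how many ES reads a member holds, so the following is a description. The median member bin held 45.5 ES positions for myotubes and 46 for pro-B cells, against 61 over all bins that met the ES minimum. In the flanks, ES cells held a median of 4.72 and 4.55 positions per kb and library. Within the read-free stretches these medians were 3.8 and 3.94.

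For each region the longest stretch free of uniquely placed reads in the empty line was located from the read positions. The 41 myotube regions lay in 39 such stretches and the 26 pro-B regions in 25. Myotube stretches were 4.42 to 43.0 kb long with a median of 10.3 kb, and 20 of the 39 were over 10 kb. Pro-B stretches were 3.23 to 38.1 kb long with a median of 11.7 kb, and 15 of the 25 were over 10 kb. Together the stretches came to 595 kb for myotubes and 316 kb for pro-B cells, and 10 and 3 of them exceeded 20 kb. These lengths depended on leaving out reads with 2 places. With those counted as well, the medians were 7.13 and 7.23 kb and the longest stretches 19.2 and 16.6 kb.

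The longest stretch was poor in uniquely placed reads in every library. It lay on chromosome 17 from 34990808 to 35033808 (43.0 kb), and held 27 positions in untreated ES, 30 in treated ES, 0 in myotubes and 24 in pro-B cells. Reads with 2 places filled it instead, with 458, 504, 109 and 350 positions in the same order. Its length is therefore less well supported by reads than that of the chromosome 1 stretches, where the 3 of the cluster held 147 to 331 ES positions each. With 2-place reads counted as well, it fell to 4.68 kb and those 3 to 12.1, 14.4 and 10.4 kb.

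**Figure D3:**
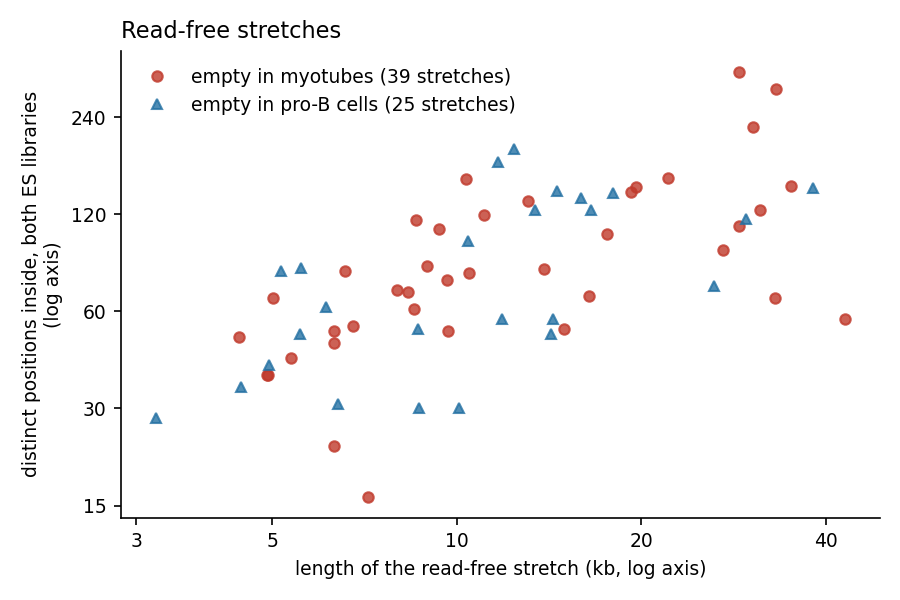
Length of each read-free stretch in kb (horizontal log axis) against the distinct positions inside it summed over both ES libraries (vertical log axis), for 39 myotube and 25 pro-B stretches. Stretches run from 3.23 to 43.0 kb, and the longest one, at 43.0 kb, holds 57 ES positions.

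The flanks of the stretches had reads in the empty line. Flanks were the 20 kb beyond each of the 2 reads that bound a stretch, without those reads and without the line's own member bins, which the rule had chosen as empty. Myotubes held 6378 positions there against 6709 in untreated ES, 7178 in treated ES and 6540 in pro-B cells. The myotube level was 0.983 (0.954 to 1.01) and the pro-B level 0.963 (0.935 to 0.992). The myotube interval covered 1 on this scale, but not with each library scaled to the member's own chromosome, where the level was 0.958 (0.930 to 0.987).

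Over single stretches the myotube flank ranged from 0.0346 to 1.55 with a median of 0.987. Of the 39 stretches, 28 lay within 0.25 of the ES level, 6 below and 5 above. Only the middle stretch of the chromosome 1 cluster, whose flanks are the thin bins between its regions, lay below 0.5. It was singled out after its value was seen.

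Pro-B flanks were lower. Pro-B cells held 3339 positions against 3977 in untreated ES, 4188 in treated ES and 3750 in myotubes. Their level was 0.836 (0.803 to 0.870), where myotubes were at 0.983 (0.945 to 1.02). Without flanks that touch another member the pro-B level was 0.901 (0.865 to 0.939). Of the 25 stretches 6 lay below 0.5, of which 5 belonged to the clusters on chromosomes 17 and 19. The sixth, on chromosome 13 from 61939689, was at 0.454.

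In the first 2.5 kb myotubes were at 0.928 (0.852 to 1.01), and between 2.5 and 5 kb at 0.974 (0.898 to 1.06). Pro-B cells were at 0.808 (0.718 to 0.908) in the first 2.5 kb, 0.727 (0.642 to 0.823) at 7.5 to 10 kb and 0.965 (0.865 to 1.08) at 12.5 to 15 kb. Without flanks that touch other members, these 3 values were 0.902 (0.799 to 1.02), 0.779 (0.686 to 0.883) and 1.05 (0.938 to 1.17). In those flanks the steps at 2.5 to 5 kb, at 0.862 (0.767 to 0.967), and at 17.5 to 20 kb, at 0.858 (0.760 to 0.967), also stayed below 1. Both sides were at 0.5 or more in 35 of the 39 myotube stretches and in 18 of the 25 pro-B stretches. Whether the lines differ in the shape of their flanks was not tested.

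**Figure D4:**
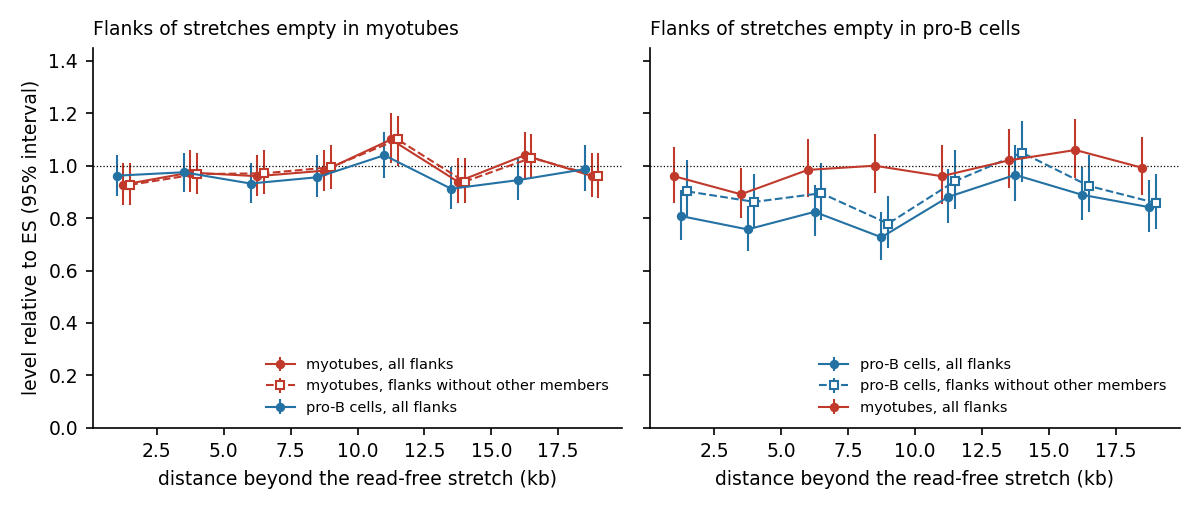
Level relative to ES (vertical axis, bars are 95% counting intervals) by distance in kb beyond the read-free stretch, in steps of 2.5 kb over both sides. Member bins of the line are left out. Myotubes are at 0.928 in the first step beside their stretches and pro-B cells at 0.808 beside theirs, or 0.902 without flanks that touch other members.

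Reads with 2 reported places, another set of reads that the rule did not use, were present in the regions but in sum fewer in the empty line. In the 41 myotube regions they held 239 distinct positions in untreated ES, 194 in treated ES, 83 in myotubes and 175 in pro-B cells. Myotubes were at 0.421 (0.329 to 0.534) and pro-B cells at 0.849 (0.708 to 1.01) of the ES level in this set. In the 26 pro-B regions the positions were 211, 198, 174 and 124, with pro-B cells at 0.638 (0.518 to 0.782) and myotubes at 0.936 (0.779 to 1.12). Summed over the regions, the line empty of uniquely placed reads thus had the lower level in both sets. Either of the 2 places of such a read can be its source, so these reads do not show that the region itself gave them.

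Chromosome 17 weighed on these sums. The single myotube bin from 35025001 to 35030000 alone held 67, 64, 18 and 61 of the 2-place positions. The pro-B bins there, from 35670001, 35685001 and 35715001, went against the sum. Pro-B cells, the empty line, held 38, 8 and 22 2-place positions in them, and myotubes held 26, 6 and 13. Outside chromosome 17 myotubes were at 0.481 (0.353 to 0.644) in their regions and pro-B cells at 0.538 (0.393 to 0.724) in theirs. Of the 36 myotube stretches with a 2-place position in an ES library, 8 held none in myotubes, and of the 24 pro-B stretches 7 held none in pro-B cells.

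**Figure D5:**
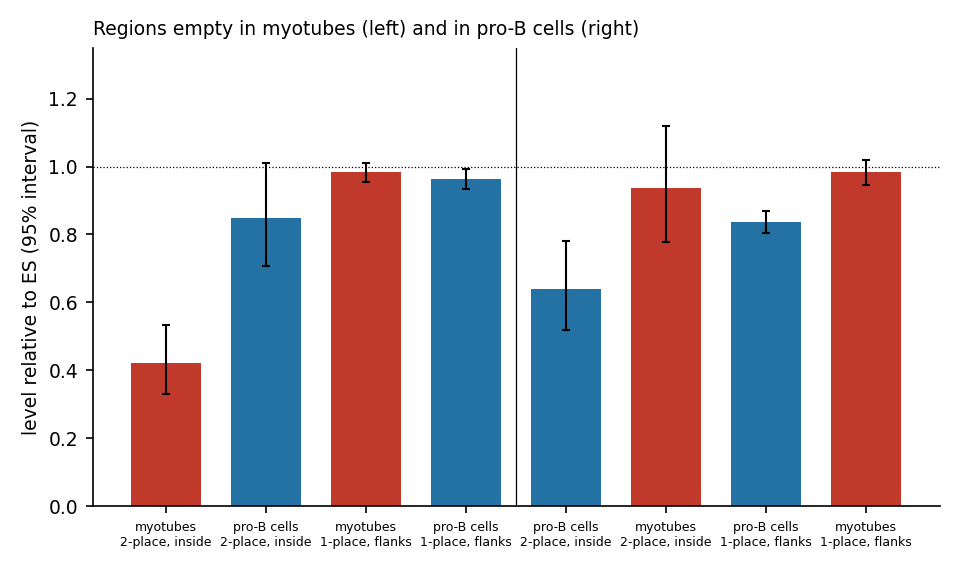
Level relative to ES (bars, with 95% counting intervals) of reads with 2 places inside the regions and of reads with 1 place in the 20 kb flanks, for regions empty in myotubes (left 4 bars) and in pro-B cells (right 4 bars). The empty line is at 0.421 and 0.638 in the 2-place reads and at 0.983 and 0.836 in the flanks.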

How the data were processed

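Per the file headers, the authors used Bowtie against mm8, keeping reads with up to 2 mismatches in the first 36 bases and no more than 2 places. Its version is not given in the sources used here. The deposited files hold 1 signed position per read and no count or scaling. Their 2 sections were read as reads with 1 and with 2 places, which is inferred from the section names and options. Per the labels' protocols, DNA went through 18 cycles of PCR and inserts of 50 to 200 nt were cut from a gel.

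Repeated reads on 1 strand and position were counted once. Distinct 1-place positions were counted in 5 kb bins, and the limits given in the report were applied. Depth was 12432118 to 13469179 distinct autosomal positions per library. Ratios have exact conditional binomial intervals (95%, scipy 1.17.1). Flanks leave out the reads that bound a stretch and the line's member bins. The rule for named regions takes the 8 longest per line and the 3 single bins with the most ES positions. The script that applies the limits was tested on simulated counts. Members, lists and limits were chosen with earlier results of these data known. Alternatives are given at the end. No genome or annotation of mm8 was used here, so no sequence or gene is given.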

Additional observations from a re-analysis of the deposited data

How the results depend on the processing

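With 1 library per group no library of a group could be left out, and no paired analysis was possible because no group has a second sample. Of 42 alternative counts of bins and regions, 30 stayed within 1.5 times the main count. Bins of 10 kb gave 16 for myotubes and 9 for pro-B cells, and bins of 2.5 kb gave 624 and 719. An ES minimum of 20 gave 95 and 93. With the chromosome 4 and 12 stretches included myotubes had 105 bins. With 0 positions only, pro-B cells had 22 bins in 16 regions. With up to 3 positions they had 91 bins in 81 regions, and myotubes had 66 regions. Looser or stricter limits set these counts by construction. With 2-place reads counted as well, 42 of the 58 myotube bins and 20 of the 35 pro-B bins were shared with the main members, and the median pro-B stretch was 7.23 kb. Scaled to the member's own chromosome, the myotube flank level was 0.958 (0.930 to 0.987), which no longer covered 1. Over 5 kb flanks the level was 0.951 for myotubes and 0.781 for pro-B cells. With member bins left in the flanks, where the rule had chosen low counts, it was 0.927 for myotubes, whose interval (0.900 to 0.954) also excluded 1, and 0.793 for pro-B cells. Without flanks that touch another member it was 0.901 for pro-B cells. The alternatives with and without those members, without the chromosome 1 cluster, without chromosome 17 and with 2-place reads in the stretches were chosen after seeing the data, and leaving out member bins was settled after flanks that held them had been computed.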

Other observations

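Chromosome X was outside the rule, and the same limits were applied to it after the data had been seen. There 16 of 10963 bins were empty in myotubes and 2 of 11399 in pro-B cells. Of the myotube bins, 9 lay between 119765001 and 120330000. The bin from 120270001 to 120275000 held 175 positions in untreated ES, 188 in treated ES, 1 in myotubes and 111 in pro-B cells, and that from 120305001 to 120310000 held 137, 123, 1 and 89. No autosomal member held as many ES positions, where the highest was 88. Both pro-B bins lay close together, from 74535001 (22, 8, 24 and 0 positions) and from 74555001 (16, 15, 21 and 0).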
